A study of Homo sapiens and Pan troglodytes with 11 samples.

Results

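PUM2 encodes Pumilio RNA-binding family member 2, and it is 1 of the 24 genes probed in a CRISPR interference screen of human and chimpanzee neurons. Its transcripts were counted in every library whose table has a PUM2 column, which was 7 of 11 libraries, with 23251 of the 41950 cells. Human neurons came from WTC11, an induced pluripotent stem cell line, and gave 4 of these libraries with 11832 cells. Chimpanzee neurons came from the induced pluripotent stem cell line C3649 and gave 3 libraries with 11419 cells. All neurons were 2 weeks old, were labelled excitatory, and belonged to a screen that asks what human accelerated regions do. Such a region is a stretch of DNA that is conserved among other animals and has many human-specific substitutions. Each species is represented by 1 line, so a difference between species cannot be told apart from a difference between these lines. The labels do not say that the libraries came from separate cultures, so p-values measure only the spread between libraries.

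Pumilio proteins bind a short element in the 3′ untranslated region (3′ UTR) of messenger RNAs and lower the translation or the stability of those transcripts. In rodent neurons PUM2 is found in cell bodies and dendrites, and it is known for restraining the translation of bound messages, among them transcripts of ion channels and of translation factors. Interference itself uses a nuclease-dead Cas9 fused to a repressor, and a guide RNA directs it to a chosen site. HyPR-seq, the assay used here, hybridises probes for selected transcripts and for guide barcodes in fixed cells and counts them per droplet as unique molecular identifiers (UMIs). The values below are therefore levels of PUM2 RNA, and PUM2 protein was not measured.

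PUM2 lies on the minus strand of chromosome 2 (GRCh38, GENCODE 29, 20248691 to 20352234), between LAPTM4A (20032650 to 20052028, minus strand) and RHOB (20447074 to 20449445, plus strand). LAPTM4A encodes a membrane protein of lysosomes, and RHOB a small GTPase that is induced as an immediate-early gene. A gap of 196.66 kb with 1 further protein-coding gene separates LAPTM4A from PUM2, and 94.84 kb with 0 protein-coding genes separates PUM2 from RHOB. The letters TGTANATA, the DNA form of the element that Pumilio proteins recognise, were searched in the annotated 3′ UTR of the 10 genes measured beside each other. They occur 2 times in the 2894 bases of PUM2 itself, 4 times in ARHGAP5 (4780 bases), 2 times in AKAP6 (7876 bases) and once in NPAS3. The other 6 genes, BAZ1A, DCTD, LAPTM4A, PSMA6, RHOB and TENM3, hold 0. Among genes whose 3′ UTR is within 25% of the length of PUM2's, 43.1% hold the element at least once and 15.12% hold as many. For ARHGAP5 these shares are 57.06% and 4.709%, and over all 19132 genes examined 23.39% hold it. On the opposite strand, which the transcript does not carry, the letters occur 2 times in PUM2 and once each in ARHGAP5, AKAP6 and BAZ1A. The 6 sites printed are those of PUM2, the gene described, and of ARHGAP5. Over the 7 libraries ARHGAP5 had 1 of the 2 highest mean correlations with PUM2 across cells, as given further on. The other, that of LAPTM4A, was as high, and LAPTM4A holds 0 elements. In chimpanzee libraries alone other genes stood higher. Capitals mark the 8 letters of the element, each with 11 flanking bases, 5′ to 3′ on the transcript strand, and none of them overlap.
PUM2 site 1, chr2:20251142-20251171, minus strand: gtttatagagaTGTATATAgaattatagtc
PUM2 site 2, chr2:20250882-20250911, minus strand: tacagaaatatTGTATATActtacatatgt
ARHGAP5 site 1, chr14:32155384-32155413, plus strand: ctggcagtcggTGTAGATAactaaaagccc
ARHGAP5 site 2, chr14:32157711-32157740, plus strand: aacatttacagTGTAAATActgcaggtaac
ARHGAP5 site 3, chr14:32157775-32157804, plus strand: cccatactgtaTGTAAATAatgtagacctg
ARHGAP5 site 4, chr14:32158303-32158332, plus strand: ttttctggggaTGTATATAggtgaaaattt
Both PUM2 elements have the same 8 letters, and they begin 425 and 685 bases after the stop codon. A match of letters is a description of the annotated human sequence. Binding was not measured, and the chimpanzee sequence was not used here.

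The 7 libraries held between 1199 and 7562 cells and between 420217 and 1818477 UMIs of the 10 genes. Screen replicate 1 gave human 1, 2 and 3 and chimpanzee 1 and 2, and screen replicate 2 gave human 6 and chimpanzee 5, which were the shallowest, at medians of 139 and 126 gene UMIs per cell against 244 to 567.5 in the others. Of 20 markers listed for excitatory and inhibitory neurons, progenitors, pluripotent cells and astrocytes, 0 were among the genes probed, so the labelled cell type could not be checked. Any pair of libraries of 1 species differed by more than sampling of UMIs gives, with chi-square values of 609.96 or more per degree of freedom, and each library was counted once. Of the 21 pairs of these libraries, 5 shared no cell barcode, and human 6 and chimpanzee 5 shared the most, 400 barcodes or 7.26% of the smaller library. In chimpanzee 5, 29.2% of cells had a barcode found in another library of the series, most of them (1436) in chimpanzee 4, which was probed for other genes. The labels do not say whether these are the same cells. PUM2 was 21.7% of the gene UMIs of those 1610 cells and 19.1% in its other 3902 cells. In human 6 such cells were 5.46% (PUM2 at 17.7% in them and 17.2% in the rest), and each other library had between 2 and 25.

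PUM2 was detected in every cell of both species. Cells without a PUM2 UMI numbered 0 in all 7 libraries, which allows a share of such cells of up to 0.0397% in the largest library, human 6, and 0.250% in the smallest, human 2. The lowest count in any cell was 7, 7, 6 and 6 UMIs in human 1, 2, 3 and 6, and 7, 1 and 5 in chimpanzee 1, 2 and 5. The data hold no cell type that lacks the gene, so the part of free RNA in these counts was not tested. The median cell had 59, 60, 49 and 25 PUM2 UMIs in human 1, 2, 3 and 6, against 125, 47 and 26 in chimpanzee 1, 2 and 5. Chimpanzee 1 stood highest, and the remaining chimpanzee libraries lay within the human range. Means per cell were 68.1, 64.6, 55.4 and 27.8 UMIs in the human libraries and 146, 52.6 and 31.2 in the chimpanzee libraries. On the log2 scale these means differed by -0.29 between human and chimpanzee, less than the spread between libraries (two-sided exact permutation test, p = 0.771). They follow the depth of each library, so the following values are relative to the other genes.

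As a share of the UMIs of the 10 genes, PUM2 was lower in each human than in each chimpanzee library. It made up 16.1%, 18.4%, 18.8% and 17.2% in human 1, 2, 3 and 6, and 22.5%, 19.5% and 19.8% in chimpanzee 1, 2 and 5. The groups did not overlap, with human 3 at 18.8% and chimpanzee 2 at 19.5% as the nearest pair. The 95% Wilson intervals, which cover counting error only, were narrow beside that spread, for example 18.7% to 18.9% in human 3 and 19.4% to 19.6% in chimpanzee 2. The means were 17.6% ± 1.23 over human libraries (SD, n = 4) and 20.6% ± 1.67 over chimpanzee libraries (SD, n = 3), a difference of -2.97 points. A two-sided exact permutation test gave p = 0.0286, the smallest that 35 splits allow, and 0.0571 after adjustment over 4 measures, which did not pass 0.05. With so few splits no measure could pass on its own separation after that adjustment. Shares did not overlap for 70% of the 10 genes, so PUM2 is no exception in this. PUM2 was the second most abundant gene by probe UMIs after RHOB in 6 libraries and the first in chimpanzee 1. Because the number of probes per gene is not given in the sources used here, that order is one of UMIs and not of transcripts. In single cells PUM2 was ahead of every other gene in 6.60%, 7.92%, 30.3% and 5.86% of cells of human 1, 2, 3 and 6, and in 66%, 24.6% and 41.7% of cells of chimpanzee 1, 2 and 5, and here human 3 lay above chimpanzee 2.

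RHOB, the neighbour on the promoter side of PUM2, weighs on that share because it is so abundant. RHOB made up 31.5%, 30.3%, 22.0% and 26.2% in human 1, 2, 3 and 6, and 19.6%, 24.4% and 22.3% in chimpanzee 1, 2 and 5. With RHOB left out of the total, PUM2 was 23.5%, 26.5%, 24.1% and 23.3% in the human libraries, and 28.0%, 25.8% and 25.4% in the chimpanzee libraries. Human 2 then exceeded chimpanzee 2 and 5, so the groups overlapped.

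Levels were also scaled by trimmed means of M-values (TMM) over the 10 genes, RHOB included. PUM2 then stood at 175, 187, 174 and 161 normalized UMIs per 1000 in human 1, 2, 3 and 6, and at 219, 189 and 219 in chimpanzee 1, 2 and 5. The groups again did not overlap, with human 2 and chimpanzee 2 nearly level. The means were 174 ± 10.6 over human libraries (SD, n = 4) and 209 ± 17.3 over chimpanzee libraries (SD, n = 3), and the log2 ratio was -0.26 ± 0.11 (SE; 95% interval -0.50 to -0.02). By edgeR's quasi-likelihood test with Benjamini-Hochberg adjustment over the 10 genes the adjusted p was 0.0573 (unadjusted 0.0344), which did not pass 0.05. The same test called 50% of the 10 genes, and normalized levels did not overlap for 60% of them. In screen replicate 1 alone the ratio was -0.19 (adjusted p = 0.261), and screen replicate 2 has 1 library per species, at 161 in human and 219 in chimpanzee. Without chimpanzee 2 the ratio was -0.33 and passed (adjusted p = 0.0214), as it did by the newer edgeR default (-0.31, adjusted p = 0.0204), and without human 3 it was -0.13 (adjusted p = 0.211).

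The called genes were lower in human for 30% of the 10 genes, namely BAZ1A (log2 ratio -1.04 ± 0.13), TENM3 (-0.84 ± 0.11) and NPAS3 (-0.76 ± 0.13), and higher for ARHGAP5 (0.52 ± 0.09) and AKAP6 (0.51 ± 0.10). PUM2 thus had the smallest ratio of the 6 genes whose libraries did not overlap. Its neighbours had ratios of the opposite sign that did not pass in this edgeR test: 0.29 ± 0.18 for RHOB (adjusted p = 0.161) and 0.16 ± 0.17 for LAPTM4A (adjusted p = 0.360). RHOB did pass by DESeq2 (0.42, adjusted p = 0.0274) and by edgeR without human 3 (0.53, adjusted p = 0.0170).

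Ratios of PUM2 to 1 other gene at a time do not depend on the total. A positive difference below means more PUM2 per UMI of that gene in human than in chimpanzee neurons. PUM2 stood in nearly the same proportion to DCTD, the deaminase of deoxycytidylate, in both species. It had 2.34, 2.85, 2.74 and 2.46 UMIs per DCTD UMI in human 1, 2, 3 and 6, and 2.78, 2.67 and 2.44 in chimpanzee 1, 2 and 5. The log2 ratio was 1.37 ± 0.13 over human libraries (SD, n = 4) and 1.39 ± 0.10 over chimpanzee libraries (SD, n = 3), a difference of -0.02 (exact permutation p = 0.857), whose sign turned without human 1 (0.030), human 6 (0.0074) or chimpanzee 1 (0.023).

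Against BAZ1A, a subunit of chromatin remodellers, PUM2 was relatively more abundant in human neurons. There were 8.83, 9.15, 8.50 and 6.34 PUM2 UMIs per BAZ1A UMI in human 1, 2, 3 and 6, and 4.84, 5.04 and 4.38 in chimpanzee 1, 2 and 5, without overlap (log2 difference 0.78). The same held for TENM3, a teneurin that acts in synaptic contacts (0.57), and NPAS3, a neuronal transcription factor (0.49).

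Against ARHGAP5, a GTPase-activating protein, PUM2 was relatively less abundant in human neurons. There were 4.02, 4.18, 4.14 and 3.53 PUM2 UMIs per ARHGAP5 UMI in human 1, 2, 3 and 6, and 7.60, 6.36 and 6.58 in chimpanzee 1, 2 and 5, again without overlap (log2 difference -0.79). AKAP6, an anchor of protein kinase A, gave 1.20, 1.30, 1.17 and 1.25 PUM2 UMIs per AKAP6 UMI in those human libraries, and 2.33, 1.75 and 2.25 in the chimpanzee libraries (-0.77). Libraries did not overlap for 5 of the 9 genes, or 55.6%. The remaining differences were -0.56 for PSMA6, a proteasome subunit, -0.53 for RHOB and -0.41 for LAPTM4A, all with overlap. Without chimpanzee 1 the PSMA6 difference was -0.33. By two-sided exact permutation tests 0 of the 9 ratios passed after adjustment (0%). The smallest unadjusted p of 0.0286, reached by AKAP6, ARHGAP5, NPAS3 and TENM3, became 0.0643, and for RHOB the adjusted p was 0.0964. Since 0.0286 is the smallest p that 35 splits allow, no gene could pass on its own separation after adjustment over 9. The count of 0 therefore does not measure how far the ratios differed.

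**Figure D1:**
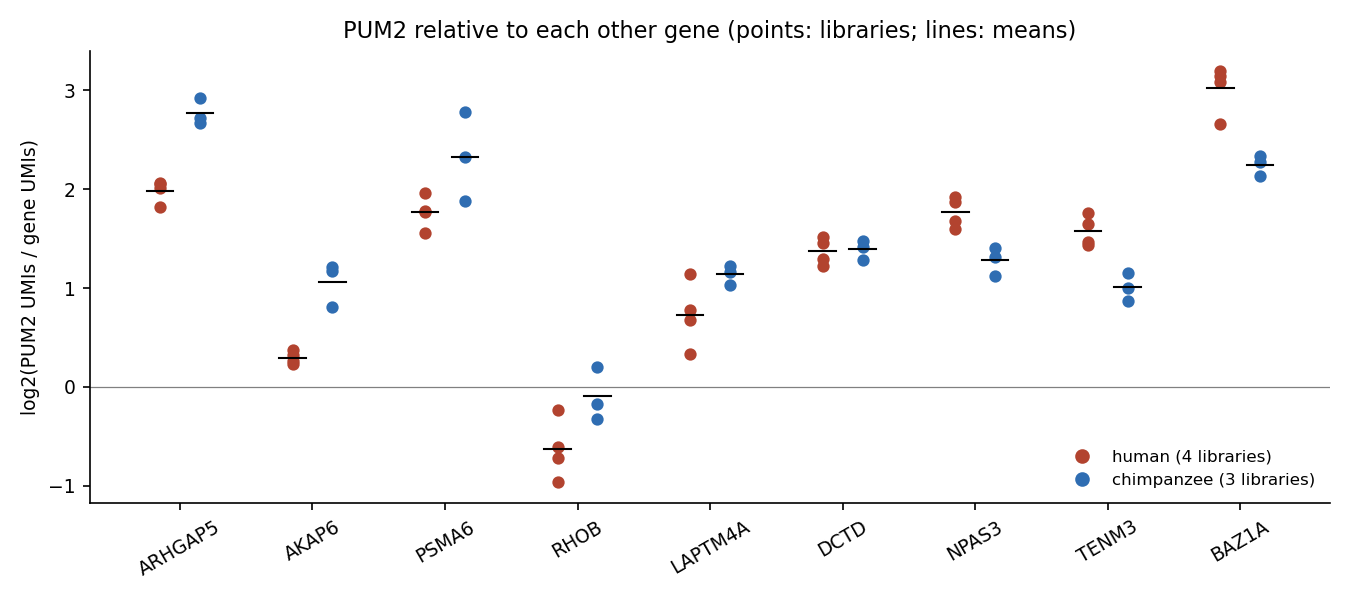
Log2 ratio of PUM2 UMIs to UMIs of each of 9 other genes, with 1 point per library and bars at group means, human left of chimpanzee. The species separate for AKAP6 and ARHGAP5 (lower in human) and for BAZ1A, NPAS3 and TENM3 (higher in human), and lie together for DCTD.

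Over the 7 libraries, the genes whose normalized level was most like that of PUM2 were NPAS3 (Pearson r = 0.90), TENM3 (0.84) and BAZ1A (0.82), and these are the genes called lower in human. These values describe 7 libraries that fall into 2 species. After the species means were taken out r was 0.61 for NPAS3, 0.28 for TENM3 and 0.15 for BAZ1A, so most of the likeness of TENM3 and BAZ1A lay in the species difference. Within the 4 human libraries alone r was 0.06 for NPAS3, -0.32 for TENM3 and -0.78 for BAZ1A, so no likeness of the 3 genes to PUM2 was seen there.

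Cells of 1 library had fairly even shares of PUM2. In cells with at least 50 gene UMIs, the share at the 10th percentile, the median and the 90th percentile of cells was 11.4%, 16.2% and 20.9% in human 1, and 16.9%, 22.7% and 27.4% in chimpanzee 1. The median cell followed the order of the libraries, with 16.2% to 18.6% in human and 19.2% to 22.7% in chimpanzee libraries. Beyond counting noise, the share had a beta-binomial SD between cells of 2.92, 2.81, 3.42 and 2.43 points in human 1, 2, 3 and 6, and of 3.45, 3.69 and 2.97 points in chimpanzee 1, 2 and 5. Relative to the share itself this was 16.4% ± 2.07 over human libraries (SD, n = 4) and 16.4% ± 2.17 over chimpanzee libraries (SD, n = 3). The overdispersion behind these SDs averaged 0.00585 and 0.00703, a difference within the spread of the libraries (exact permutation p = 0.314, adjusted p = 0.419). That difference of -0.00118 was -0.000352 without chimpanzee 2, -0.000611 without human 6, -0.00179 without human 3 and -0.00191 without chimpanzee 5. With the 5 cells of highest PUM2 share left out, the overdispersion of human 6 was 0.00239 in place of 0.00414. Among the 10 genes PUM2 had rank 2 or 3 in overdispersion in human 1, 2, 3 and 6 and rank 2 in chimpanzee 5, but rank 5 in chimpanzee 1 and 6 in chimpanzee 2. AKAP6, NPAS3, TENM3 and RHOB varied more in both of these, and BAZ1A also did in chimpanzee 2. Part of this order rested on few cells, as seen with the 5 cells of highest share left out for each gene. TENM3 in chimpanzee 1 then had 0.00615 against 0.00666 for PUM2. BAZ1A in chimpanzee 2 had 0.00585 against 0.00815 for PUM2.

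If each cell is thinned to 10 gene UMIs, the chance that it keeps a PUM2 UMI puts cells of all depths on 1 scale. It was 81.9%, 86.1%, 86.0% and 84.9% in human 1, 2, 3 and 6, and 91.2%, 87.2% and 89.1% in chimpanzee 1, 2 and 5, with no cell left out. Without thinning all values were 100%. The thinned values did not overlap and differed by -4.41 points (exact permutation p = 0.0286, adjusted p = 0.0571). This measure carries much the same information as the share, and is no second line of evidence. Binomial sampling with the share of the library alone would give 82.7%, 87.0%, 87.5% and 84.9% in the human libraries, and 92.2%, 88.6% and 89.0% in the chimpanzee libraries.

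The share of PUM2 had no common trend with the depth of a cell. With the cells of a library split into 4 depth groups of equal size, from fewest to most gene UMIs, it was 16.7%, 16.6%, 15.8% and 15.9% in human 1, and 22.3%, 22.3%, 22.3% and 22.8% in chimpanzee 1. It was lower in deeper cells of the shallow libraries of screen replicate 2. In human 6 the groups held 17.8%, 17.7%, 17.3% and 16.7%, and in chimpanzee 5 they held 21.7%, 21.0%, 20.0% and 18.6%. Human 3 went the other way, with 18.3%, 18.1%, 18.7% and 19.4%, as did chimpanzee 2, with 18.5%, 19.6%, 19.8% and 19.6%. In its deepest group chimpanzee 5 therefore lay below the 19.4% of the deepest group of human 3.

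Averaged over the 7 libraries, PUM2 went most closely with ARHGAP5 and LAPTM4A across cells. The measure is Pearson's partial r of log2 (UMIs + 1), given the summed UMIs of the other 8 genes, within each library and over cells with at least 50 gene UMIs. Without that condition on depth, plain r averaged 0.58 (BAZ1A) to 0.76 (LAPTM4A) over the 9 genes. The partial r with ARHGAP5 was 0.55, 0.35, 0.31 and 0.10 in human 1, 2, 3 and 6, and 0.38, 0.26 and 0.17 in chimpanzee 1, 2 and 5. With LAPTM4A it was 0.49, 0.40, 0.35 and 0.13 in human 1, 2, 3 and 6, and 0.35, 0.32 and 0.06 in chimpanzee 1, 2 and 5. Both were positive in 7 of 7 libraries, as were AKAP6, TENM3, NPAS3 and DCTD, and BAZ1A, PSMA6 and RHOB were in 6. ARHGAP5 and LAPTM4A had a mean of 0.30 each and ranks 2 and 3 among all 45 pairs of genes, after AKAP6 with RHOB (0.42). Over human libraries they also had the highest means, 0.33 for ARHGAP5 and 0.34 for LAPTM4A. Over chimpanzee libraries TENM3 (0.34), BAZ1A (0.31) and NPAS3 (0.31) had higher means than ARHGAP5 (0.27) and LAPTM4A (0.24). The highest r was that of TENM3 in chimpanzee 1 and 2, AKAP6 in chimpanzee 5 and RHOB in human 6. For ARHGAP5 and LAPTM4A the lowest values in each species were those of human 6 and chimpanzee 5. These are the libraries with fewest UMIs per cell, and the part of depth was not tested. Rank correlation gave means of 0.32 and 0.32, and cells with at least 100 UMIs gave 0.31 and 0.29.

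Averaged over the 7 libraries, RHOB and PSMA6 were the genes least tied to PUM2, with a mean of 0.10 each. Over human libraries alone BAZ1A was lowest (0.096), beside RHOB (0.099), DCTD (0.117) and PSMA6 (0.119). For RHOB, the nearer neighbour on the chromosome, r was -0.06, 0.07, 0.02 and 0.36 in human 1, 2, 3 and 6, and 0.04, 0.12 and 0.15 in chimpanzee 1, 2 and 5. In human 6 RHOB had the highest r of the 9 genes, in contrast to the low values of ARHGAP5 and LAPTM4A there. By mean over the 7 libraries the neighbours of PUM2 thus had ranks 2 and 9 among the 9 genes. Correlations of plain shares, set against sampling, had the same genes at both ends. The share of PUM2 correlated with that of ARHGAP5 at 0.10 on average, 0.20 above the negative value that multinomial sampling alone gives, and above it in 7 of 7 libraries. With RHOB the mean was -0.46, which is -0.18 relative to that value, and above it in 1 of 7 libraries.

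BAZ1A was the 1 gene whose partial r did not overlap between the species. It was 0.19, 0.12, 0.10 and -0.03 in human 1, 2, 3 and 6, and 0.44, 0.30 and 0.20 in chimpanzee 1, 2 and 5. Human 1 and chimpanzee 5 were nearly level. BAZ1A also had fewer UMIs in human libraries (1.82% to 2.72% of gene UMIs) than in chimpanzee libraries (3.87% to 4.65%), and the part of this in its lower r was not tested. Genes with the Pumilio element in their 3′ UTR had mean r of 0.30 (ARHGAP5), 0.23 (AKAP6) and 0.21 (NPAS3), and those without it ranged from 0.10 (RHOB) to 0.30 (LAPTM4A). All these values describe cells that share a library, a depth and a fixed panel of probes.

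**Figure D2:**
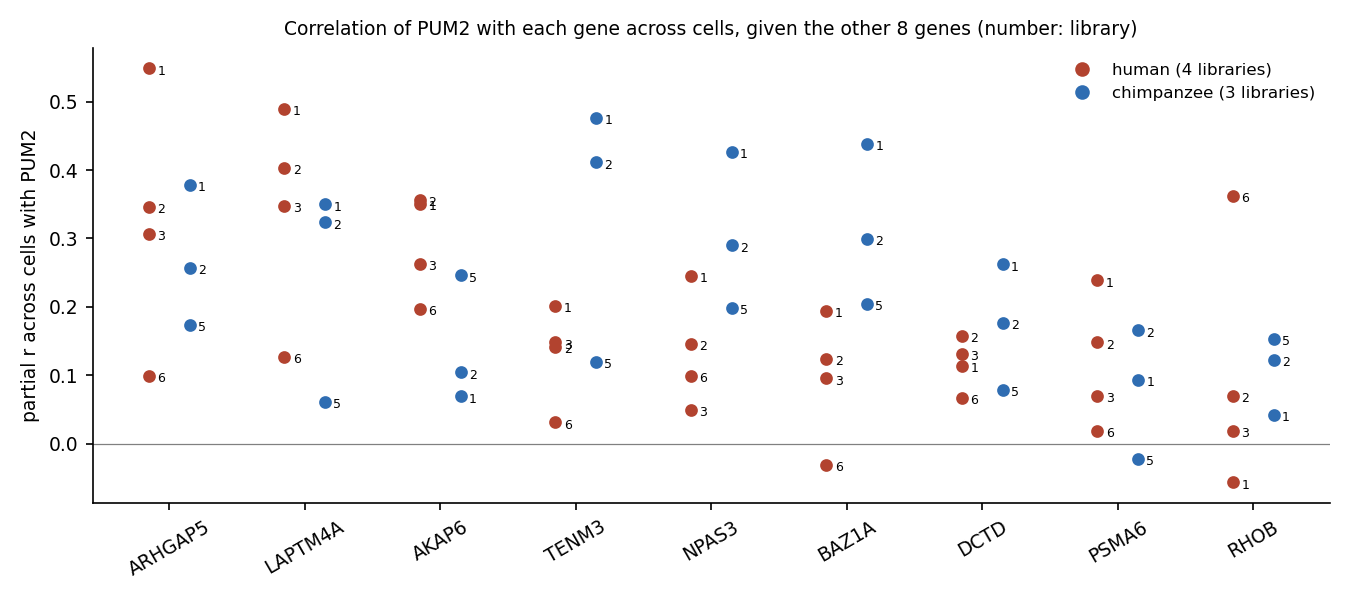
Partial correlation of PUM2 with each of 9 other genes across cells, given the UMIs of the other 8 genes, with 1 point per library and human left of chimpanzee. Over the 7 libraries ARHGAP5 and LAPTM4A have the highest means (0.30 each) and RHOB and PSMA6 the lowest (0.10 each).

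The screen asks whether repression directed by a guide changes a gene. All 28 guide barcodes were counted, but their names give neither target nor control, and no map from barcode to guide was used. The cells of each barcode were therefore set against the assigned cells of all other barcodes, library by library. Assignment needed 5 UMIs of a barcode and 70% of all guide UMIs in that cell. This left 337, 211 and 370 cells in human 1, 2 and 3, and 327 and 1022 in chimpanzee 1 and 2. Human 6 had 3 assigned cells and chimpanzee 5 had 6, and both stayed out of the comparison. The rule does not pick cells with a single barcode. At least 8 barcodes with 5 UMIs each were found in 98.8%, 99.2% and 98.5% of all cells of human 1, 2 and 3. In chimpanzee 1 and 2 these were 99.7% and 92.1% of all cells. Most assigned cells therefore carried further barcodes beside the one they were assigned to. Assigned cells were shallower than the rest, for example with a median of 268 gene UMIs against 404 in human 1. PUM2 made up 15.6% of gene UMIs in assigned and 16.2% in other cells of human 1, 18.0% and 18.5% in human 2, 18.9% and 18.8% in human 3, 20.7% and 22.7% in chimpanzee 1, and 19.0% and 19.7% in chimpanzee 2.

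In human neurons no barcode changed PUM2 past the threshold. Of 18 barcodes that could be tested 0 passed by edgeR's quasi-likelihood test (adjusted over 180 pairs of barcode and gene, of which 0% were called), with 1 at an unadjusted level of 0.05, where 7.22% of the 180 pairs stood. DESeq2 called 0, with 0 at the unadjusted level. That barcode was Brainbar8. PUM2 was 17.0%, 19.7% and 18.7% of gene UMIs in its 18, 9 and 15 cells of human 1, 2 and 3, against 15.6%, 17.9% and 18.9% in other assigned cells. It was higher in 2 of 3 libraries, and the log2 ratio was 0.14 ± 0.06 (95% interval 0.0028 to 0.28, adjusted p = 0.648). Without human 1 that ratio was 0.05, and without TMM factors 0.08. The highest ratio was that of SplintRbar5, 0.25 ± 0.15 (-0.09 to 0.58), from 5 cells of human 2 at 22.8% against 17.9% and 14 cells of human 3 at 20.5% against 18.9%. The lowest was -0.09 ± 0.10 for SplintRbar20 (-0.30 to 0.12), whose cells had 14.8%, 16.9% and 17.1% against 15.7%, 18.0% and 19.0%. SplintRbar10 had 0.10 ± 0.05, SplintRbar15 0.14 ± 0.08 and SplintRbar26 -0.09 ± 0.05, none past the threshold. Without human 1 the ratio of SplintRbar10 was 0.05 and that of SplintRbar15 was 0.03. SplintRbar10 had 0.06 without human 2 and 0.16 without human 3, and SplintRbar26 had -0.05 without human 2.

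In chimpanzee neurons 17 barcodes could be tested, each with 2 libraries. For PUM2 0 passed by edgeR and 0 stood at the unadjusted level of 0.05, against 0% and 7.06% of the 170 pairs of barcode and gene. DESeq2 gave 0 and 0. Ratios ran from -0.08 ± 0.09 for Brainbar8, with PUM2 at 19.8% and 18.8% in its cells of chimpanzee 1 and 2 against 20.7% and 19.1% in other assigned cells, to 0.17 ± 0.14 for SplintRbar13, at 22.6% and 19.2% against 20.6% and 19.0%. Between them lay SplintRbar18 (-0.06 ± 0.03), SplintRbar27 (-0.04 ± 0.04), SplintRbar5 (0.03 ± 0.02) and Brainbar4 (0.10 ± 0.09). Over the barcodes the log2 ratios of PUM2 had an SD of 0.10 in human and 0.06 in chimpanzee neurons. Each lay within the range of the other 9 genes, 0.06 to 0.17 in human and 0.05 to 0.19 in chimpanzee neurons.

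The intervals show how large a difference between cells assigned to a barcode and other assigned cells could still be present. Over the tested barcodes they reached down to -0.38 in human and -0.49 in chimpanzee neurons on the log2 scale, and up to 0.58 in human and 0.63 in chimpanzee neurons. Fitted ratios are relative to TMM factors over only 10 genes, so they can differ from plain ratios of shares. An effect common to all barcodes would not appear in this comparison.

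Whether a barcode acted differently in human and chimpanzee neurons was tested as an interaction for 16 barcodes. Of these 0 passed for PUM2 by edgeR and 0 stood at the unadjusted level, against 0% and 6.88% of the 160 pairs, and DESeq2 gave 0 and 0. The smallest p was that of SplintRbar10, where the ratio in human cells lay 0.13 ± 0.06 above that in chimpanzee cells (adjusted p = 0.677). Brainbar4 had -0.19 ± 0.14, Brainbar5 0.08 ± 0.06, SplintRbar5 0.24 ± 0.17 and SplintRbar12 0.08 ± 0.08. Some of these values rested on single libraries: SplintRbar5 had 0.02 without human 2 and SplintRbar12 0.01 without chimpanzee 1. SplintRbar10 kept its sign, from 0.09 without human 3 to 0.17 without chimpanzee 2. Brainbar4 also kept its sign, from -0.23 without human 1 to -0.12 without chimpanzee 2. Brainbar5 ran from -0.0043 without chimpanzee 1 to 0.06 without human 3. The sign was the same in both species for 6 of the 16.

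Counting every barcode with at least 5 UMIs, so that 1 cell could count for several, gave 6 calls for PUM2 among 27 barcodes in human neurons. These were Brainbar4, SplintRbar10, SplintRbar11, SplintRbar20, SplintRbar22 and SplintRbar24, all with more PUM2 in cells of the barcode. The same rule called 44 of 270 pairs of barcode and gene in human neurons. In chimpanzee neurons it called 12 of 270 pairs, and for PUM2 0 of 27 barcodes by edgeR (1 at the unadjusted level, no other tool run). Between 92.1% and 100% of cells in each library carried at least 8 such barcodes, so under this rule the classes shared most of their cells. The ratio of SplintRbar20 had the opposite sign under that rule (0.13, against -0.09 in singly assigned cells).

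**Figure D3:**
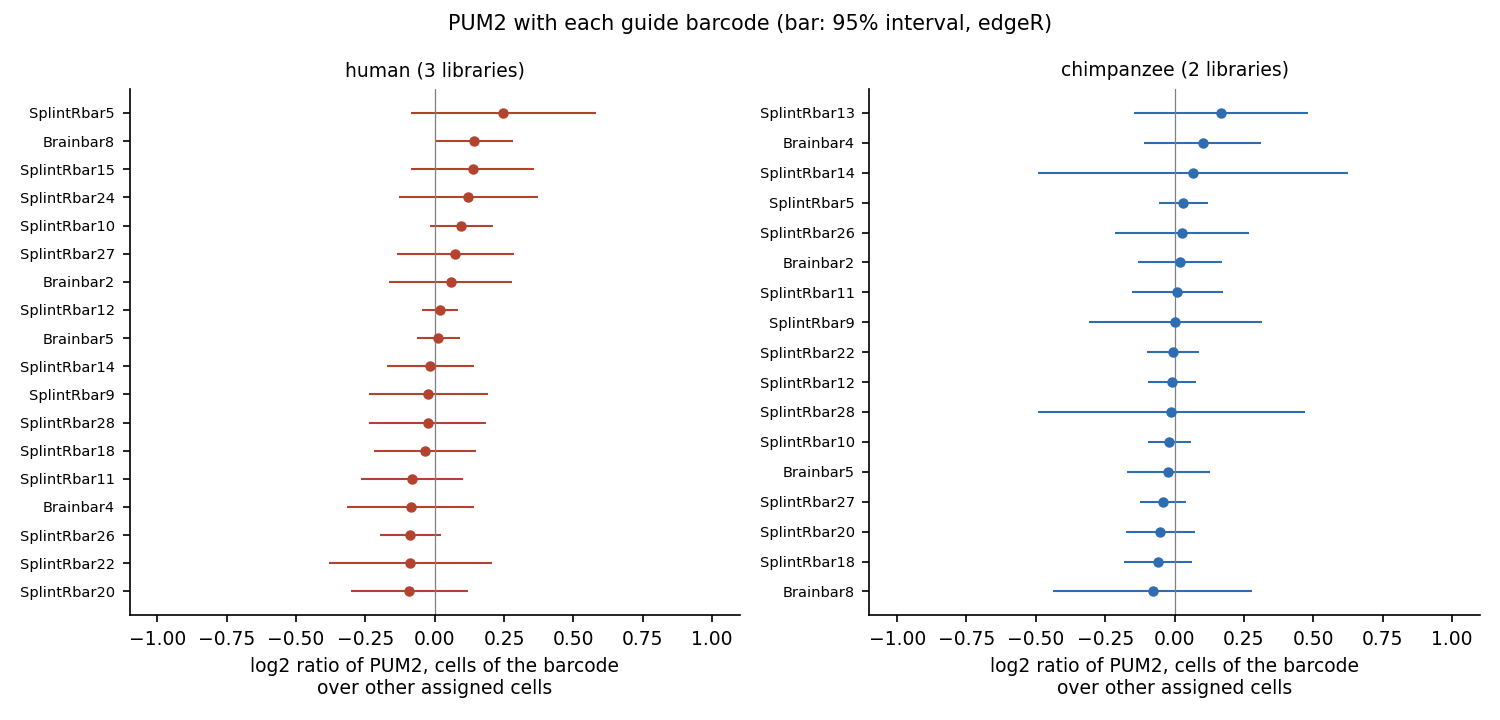
Log2 ratio of PUM2 in cells of each guide barcode over other assigned cells of the same libraries (edgeR, bars are 95% intervals), for 18 barcodes in human and 17 in chimpanzee neurons. Intervals include 0 for every barcode except Brainbar8 in human neurons, whose lower end is 0.0028.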

How the data were processed

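Probe UMIs were measured by HyPR-seq in fixed neurons. The deposited tables hold raw UMI counts per cell barcode, per the file headers. The authors' processing is known only from the submitters' processing notes, which name fastp, UMI-tools, Bowtie, SAMtools and hg38. Their versions and roles and the rule for keeping cells are not stated there. Probe sequences were not used, so their match to chimpanzee RNA was not tested.

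Species came from the labelled line. PUM2 and the gene lists were chosen with earlier results of these data known. Per library, UMIs of the 10 genes were summed over all cells (median 126 to 567.5 UMIs per cell), without guide barcodes. No doublet caller was run, and the 5% of cells with most UMIs were left out as an alternative. edgeR 4.0.16 (R 4.3.3; TMM, common dispersion, legacy quasi-likelihood, genes with 10 UMIs in 5 libraries) tested species, and barcodes with the library as a block (classes of at least 5 cells in at least 2 libraries with at least 50 assigned cells). SEs were computed from the p-values and degrees of freedom. DESeq2 1.42.0 was an alternative. Single values had exact permutation tests over libraries (SciPy 1.17.1). The fits were also run on simulated counts. For species a single gene of the 10 was changed at a time, while 5 of the 10 were called here. Those runs therefore do not measure the errors of the fits in these data. The titles number the screen replicate, and between species the mean deviations of a screen replicate correlated at 0.34 over the 10 genes. Barcodes named in the text were the 5 with the smallest p in each fit and those with the highest and lowest ratio. The likeness genes named were the 3 with the highest r over libraries and the 2 highest and 2 lowest partial r. Positions and 3′ UTRs are from GRCh38 with GENCODE 29.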

Additional observations from a re-analysis of the deposited data

How the results depend on the processing

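The species ratio of PUM2 was negative in 19 of 19 alternatives, from -0.33 to -0.12, and stayed above an adjusted p of 0.05 in 17. Dropping the gene filter and adjusting over 24 genes left the fitted ratio at -0.26, so these alternatives repeat the main fit and do not test its sign. The species ratio passed by the newer edgeR default (-0.31, adjusted p = 0.0204) and without chimpanzee 2 (-0.33, adjusted p = 0.0214). With the screen replicate as a replicate block it was -0.27 (adjusted p = 0.0781), by DESeq2 -0.12 (0.137), in assigned cells only -0.13 (0.297), and with PUM2 and RHOB left out of the library size -0.16 (0.175). Called genes numbered 5 with the block too, 8 by the newer default, 3 in assigned cells only and 5 to 8 without 1 library. Leaving out cells whose barcode is in another library, an alternative chosen after seeing the data, gave -0.24 (0.0636). Without 1 library, the difference in mean log2 UMIs ran from -0.78 to 0.33, that in the ratio to DCTD from -0.072 to 0.030, and that in the share from -3.52 to -2.01 points. Without shared cell barcodes the DCTD difference was 0.0050. The difference of the share was negative in all 10 alternatives. Exact tests without 1 library have too few splits to pass 0.05, so their p-values say nothing of its stability.

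For guides in human neurons, counting every barcode with 5 UMIs gave 6 PUM2 calls, and the other alternatives gave 0, the fit with no replicate block included. Every alternative in chimpanzee neurons and of the interaction gave 0. Signs of some single ratios turned. With assignment at 2 UMIs and 50% these were SplintRbar10 (-0.0018) and SplintRbar20 (0.012) in human, SplintRbar18 (0.0093) and SplintRbar13 (-0.0074) in chimpanzee, and SplintRbar10 (-0.032) for the interaction. With every barcode of 5 UMIs they were SplintRbar26 (0.15) and SplintRbar20 (0.13) in human, SplintRbar18 (0.071), SplintRbar27 (0.043) and Brainbar8 (0.025) in chimpanzee, and Brainbar4 (0.29) for the interaction. The interaction of Brainbar5 was -0.012 by DESeq2, -0.037 without TMM and between -0.0043 (without chimpanzee 1) and 0.063 (without human 3) with 1 library left out, and that of SplintRbar12 was -0.0086 by DESeq2. The cause was not tested. Leaving out a library in the chimpanzee guide fits was not run, as 1 library would remain. A barcode had 19 to 94 assigned cells in human and 17 to 123 in chimpanzee neurons, which limits the precision of the guide results.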
